A study of Mus musculus with 9 samples.

Results

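Replicate 3 of 3 groups of mouse LSK cells was set against replicates 1 and 2 of the same groups, 3 arrays of 9 against the other 6. LSK cells lack lineage markers and carry Sca-1 and Kit. Haematopoietic stem cells and multipotent progenitors of the bone marrow lie in this fraction. The members were taken from the sample titles: the 3 arrays whose title ends in replicate 3 were EV (empty vector), WT (wild-type DNMT3A) and R882H, and each of these vectors also had an array numbered 1 and one numbered 2. All 9 samples shared the C57BL/6 strain, a GFP-labelled vector, a passage through transplanted mice and a new sort, so the cells with empty vector were themselves transduced and transplanted. DNMT3A methylates cytosines that were not methylated before, and R882H is the substitution most often found in it in acute myeloid leukaemia. Total RNA was extracted, cDNA was amplified from 3.67 ng of it, and each sample was hybridised to 1 Agilent array with 1 colour. The labels give no age of the mice, no time after transplantation, no promoter of the vector and nothing on what the replicate numbers stand for. They do not say whether the replicates came from separate mice, so p-values cover the spread between these 9 samples only, and that spread may be technical.

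Haematopoietic stem cells keep a programme of transcription factors such as Hlf, Mecom, Meis1 and Gata2. As they differentiate, multipotent progenitors turn towards a lymphoid, a megakaryocyte and erythroid, or a granulocyte and monocyte fate. Granulocyte and monocyte progenitors first make the azurophil granule proteins, serine proteases and myeloperoxidase under the control of factors such as PU.1 and the C/EBP family, and later the granule proteins of maturing neutrophils. The LSK gate holds cells along the early part of this path, so a sorted preparation can contain different shares of them. In a bulk sample, a different share of cells of a type and a different amount of RNA per cell cannot be told apart.

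Which arrays are number 3 rests on the labels of the scanner output. In a value table that the authors deposited for the same samples, 2 of the 9 columns held the array of the sample they are named for and 7 held another sample's array, at a correlation of at least 0.99996 over 41854 probes. In the order EV1, EV2, EV3, WT1, WT2, WT3, R882H1, R882H2, R882H3 of their names, the columns held the arrays EV1, EV2, WT1, EV3, R882H1, WT2, R882H2, R882H3 and WT3. The columns named EV3, WT3 and R882H3 thus held WT1, WT2 and WT3. By the scanner labels, a comparison by column names therefore sets wild-type DNMT3A against the other vectors, and not replicate 3 against the others. Taken by its column names, that table left 0 genes past the threshold by limma (661 at an unadjusted p under 0.05), and taken by the arrays its columns hold it gave 62. All values below are those of the scanner output and its labels.

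No measure of signal quality passed a test between the sides. Of the 55681 probes, 57.1% ± 0.86 were well above background on the arrays of replicate 3 and 59.6% ± 4.53 on those of replicates 1 and 2 (SD, n = 3 and 6, exact permutation test within vector groups, two-sided p = 0.407). The 75th percentile of the processed signal was 204 ± 8.95 against 217 ± 11.9 (SD, n = 3 and 6, exact permutation test, two-sided p = 0.296), and the local background 25.8 ± 1.89 against 26.5 ± 1.87 (SD, n = 3 and 6, exact permutation test, two-sided p = 0.333). Per the file headers, EV1, EV2, EV3 and WT1 shared slide 1, WT2, WT3, R882H1 and R882H2 shared slide 2, and R882H3 lay alone on slide 3, with a scan number equal to the slide number. The difference of replicate 3 is therefore measured within a slide for empty vector, within a slide against WT2 alone for wild-type DNMT3A, and for R882H slide and replicate number cannot be told apart.

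A level is given below as log2 of the processed signal over the 75th percentile of its array, so that 0 is a probe at that percentile. A difference is the log2 level in replicate 3 minus that in replicates 1 and 2 with the vector group as a block, from limma, on 3 and 6 arrays, with its standard error (SE) and a p-value adjusted over all 12528 genes tested by Benjamini-Hochberg. Levels of different genes come from different probes and are not set against each other.

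Genes of granulocytes and monocytes were among those higher in replicate 3, and genes of stem cells and megakaryocytes among those lower. Of 12528 genes, 61 (0.487%) passed an adjusted p under 0.05, 37 (0.295%) higher and 24 (0.192%) lower. With the array median as scale 99 were higher and 34 lower. At an unadjusted p under 0.05 there were 2215 genes (17.7%), 1260 (10.1%) higher and 955 (7.62%) lower. The 3 arrays of replicate 3 lay above all 6 others for 414 genes (3.3%) and below all 6 for 361 (2.88%), and 42 of the 61 genes that passed were among these. Folds of the genes that passed ran from 1.66 to 20.4. The median SE over all genes was 0.177 and the median difference over all genes 0.03. Of 13091 probes without a symbol, 3 passed as higher and 1 as lower.

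Each vector group gave its own measure of the replicate 3 difference. Across genes, which are not independent replicates, the difference with empty vector correlated with that with wild-type DNMT3A at r = 0.40, with that with R882H at 0.33, and that with wild-type DNMT3A with that with R882H at 0.31. None of the 61 genes that passed had the opposite sign with R882H, though the R882H arrays were part of the test that chose them. The number of genes that passed moved with the array left out: without EV3 it was 2, without WT3 3, without R882H3 130, without WT1 3, without EV1 52, without EV2 29, without WT2 30, without R882H1 33 and without R882H2 21. With slide as a fixed block 3 genes passed, of which Wfdc21 and Dmkn are among the 61, and 1899 had an unadjusted p under 0.05. In that fit the term for slide 3 takes up R882H3, the only array on it. The difference then rests on empty vector and wild-type DNMT3A alone.

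The genes with the largest folds upwards included genes of granulocytes and of the acute phase. Wfdc21, a small secreted protein with a whey acidic protein domain, had log2 levels of 3.02 in EV3, 1.51 in WT3 and -0.87 in R882H3, against a lowest of -4.22, a median of -3.06 and a highest of -2.54 in replicates 1 and 2, a log2 difference of 4.35 ± 0.56 (SE; adjusted p = 0.0304). The 3 arrays of replicate 3 lay above all 6 others, and the probe was well above background on 5 of those 6. Within vectors its log2 differences were 5.56 for EV, 5.19 for WT and 2.30 for R882H.

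Hp encodes haptoglobin, which binds free haemoglobin and is stored in neutrophil granules. Its log2 levels were 5.76 in EV3, 5.31 in WT3 and 3.61 in R882H3, against a lowest of 1.34, a median of 2.53 and a highest of 3.14 in replicates 1 and 2, a log2 difference of 2.59 ± 0.21 (SE; adjusted p = 0.00885), and the arrays did not overlap. Mt1, a metallothionein that binds zinc, rose, with a log2 difference of 2.40 ± 0.33 (SE; adjusted p = 0.0333), also without overlap. Nrp2, a co-receptor for semaphorins and vascular growth factors, rose, with a log2 difference of 2.63 ± 0.34 (SE; adjusted p = 0.0312), though its probe was well above background on only 2 of the 6 arrays of replicates 1 and 2. Dmkn, a secreted protein of the epidermis, had a log2 difference of 2.94 ± 0.35 (SE; adjusted p = 0.0248), and its R882H array of replicate 3 overlapped the other 6. The paralogs Mrgpra2a and Mrgpra2b, receptors of the Mas-related family, had log2 differences of 2.89 (adjusted p = 0.0130) and 2.95 (adjusted p = 0.0130). Their sequences are nearly identical, so the signal of either probe may come from both.

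The genes with the largest folds downwards included several that were dim in replicate 3. Tmem121 was not well above background on any of the 3 arrays of replicate 3 and at least 2.15-fold lower (adjusted p = 0.00885), Rufy3 at least 2.88-fold lower (adjusted p = 0.0469) and Carns1, carnosine synthase, at least 2.57-fold lower (adjusted p = 0.0130). Each bound sets the mean of replicates 1 and 2 against the lowest signal that counts as well above background. Gucy1a1, a subunit of the nitric oxide receptor guanylate cyclase, fell, with a log2 difference of -1.96 ± 0.21 (SE; adjusted p = 0.0183) and was well above background on 1 of the 3 arrays of replicate 3, like Dcaf12l1 at -1.71 (adjusted p = 0.0270). Myo1d, an unconventional myosin, was measured on all 9 arrays. Its log2 levels were -2.29 in EV3, -2.97 in WT3 and -2.53 in R882H3, against a lowest of -1.09, a median of -0.78 and a highest of -0.24 in replicates 1 and 2, a log2 difference of -1.87 ± 0.18 (SE; adjusted p = 0.0130) without overlap. Cavin1, a coat protein of caveolae, had a log2 difference of -1.59 ± 0.25 (SE; adjusted p = 0.0452), with R882H3 inside the range of the other 6.

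Lists of genes for stem cells, lineages and cell functions were then read. A list member that entered the test because it was well above background on one side alone had to differ, so counts and medians of lists are given over members well above background on all 9 arrays. Of all 11661 such genes, 54.8% were higher and 45.2% lower in replicate 3, with a median log2 difference of 0.031. Of them 33 (0.283%) passed as higher and 16 (0.137%) as lower, and 9.96% were higher and 7.22% lower at an unadjusted p under 0.05. Replicate 3 lay above both other replicates in all 3 vector groups for 12% of these genes and below both for 7.5%. No p-value is given for a list.

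**Figure D1:**
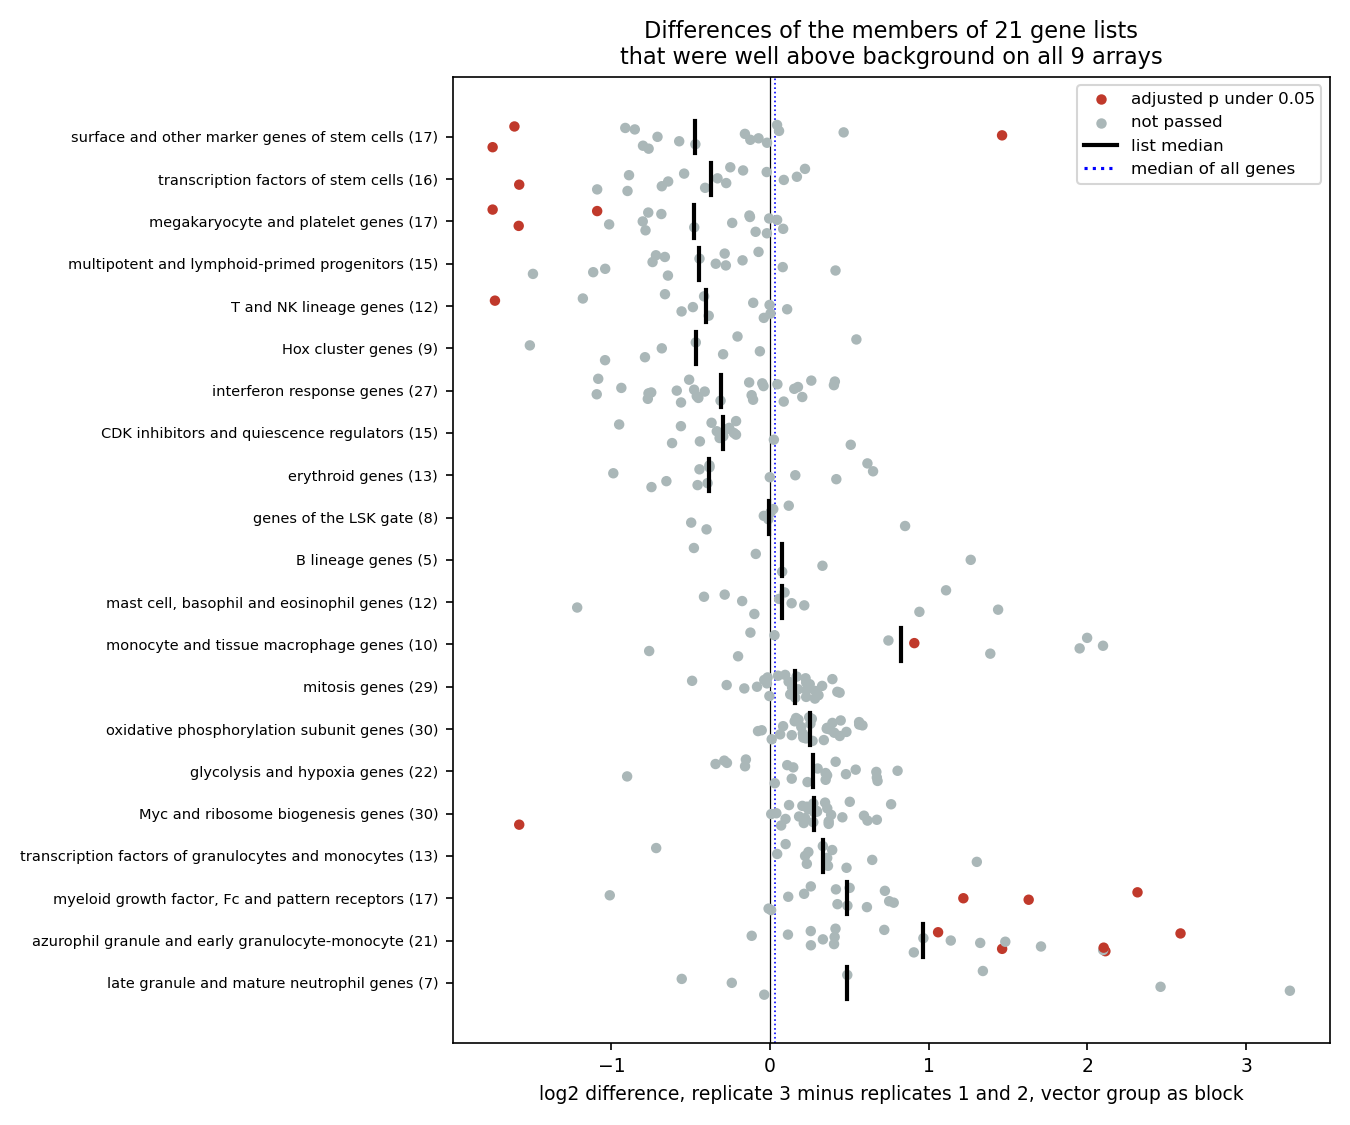
Log2 differences (replicate 3 minus replicates 1 and 2, x axis) of the members of 21 gene lists on all 9 arrays, 1 point per gene, with the number of genes in brackets. Red points passed an adjusted p under 0.05, black bars are list medians and the dotted line is the median of all such genes at 0.031. The azurophil granule list has its median at 0.97 and the stem cell surface list at -0.47.

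Among transcription factors of stem cells, 1 fell and none rose. Of 21 members 3 were not tested, 2 were admitted through replicates 1 and 2 alone and 16 were well above background on all 9 arrays. Among these 16, 13 were lower and 3 higher, with a median log2 difference of -0.37, and 7 were lower at an unadjusted p under 0.05. Replicate 3 lay below both others in all 3 vectors for 7 of them and above both for 1. The list medians within vectors were -0.71 for EV, -0.11 for WT and -0.17 for R882H.

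Mycn, a Myc family factor of stem cells, was the member that passed. Its log2 levels were 1.13 in EV3, 2.31 in WT3 and 2.51 in R882H3, against a lowest of 3.01, a median of 3.42 and a highest of 4.36 in replicates 1 and 2, a log2 difference of -1.58 ± 0.25 (SE; adjusted p = 0.0494) without overlap. Meis1, the homeobox partner of Hox proteins, had log2 levels of 1.66 in EV3, 1.75 in WT3 and 2.96 in R882H3, against a lowest of 2.51, a median of 3.29 and a highest of 3.57 in replicates 1 and 2. Its log2 difference of -1.09 ± 0.23 (SE; adjusted p = 0.0703) did not pass, and R882H3 lay inside the range of the other 6. Tal1, a basic helix-loop-helix factor of stem and erythroid cells, had a log2 difference of -0.64 (adjusted p = 0.0684), Mllt3, which maintains human stem cells in culture, one of -0.54 (adjusted p = 0.117), and Hlf, a bZIP factor largely restricted to stem cells, one of -0.90 (adjusted p = 0.159). Gata2 had log2 differences of -0.73 for EV, -0.50 for WT and 0.00034 for R882H, with -0.41 (adjusted p = 0.241) over the 3 vectors. Mecom, which encodes Evi1, went in different directions, with log2 differences of 0.67 for EV, -2.56 for WT and -0.39 for R882H and -0.76 (adjusted p = 0.515) over the 3. Prdm16, a zinc finger factor needed for stem cell maintenance, had a log2 difference of -2.01 ± 0.41 (SE; adjusted p = 0.0672) but was well above background on 1 of the 3 arrays of replicate 3.

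Among surface proteins and other markers of stem cells that were measured on all 9 arrays, 2 fell and 1 rose. Of 30 members 4 were not tested, 1 was admitted through replicate 3 alone, 8 through replicates 1 and 2 alone, and 17 were well above background on all 9 arrays. Among these 17, 13 were lower and 4 higher, with a median log2 difference of -0.47. Within vectors the medians were -0.59 for EV, -0.26 for WT and -0.36 for R882H, and WT3 against WT2 alone, on their shared slide, gave -0.15.

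Socs2, a feedback inhibitor of cytokine signalling that marks stem cells, had log2 levels of -3.21 in EV3, -2.22 in WT3 and -1.60 in R882H3, against a lowest of -1.55, a median of -0.75 and a highest of 0.28 in replicates 1 and 2, a log2 difference of -1.61 ± 0.22 (SE; adjusted p = 0.0328) without overlap. Vwf, von Willebrand factor, marks platelet-biased stem cells and megakaryocytes. It had a log2 difference of -1.41 ± 0.22 (SE; adjusted p = 0.0417). Mmrn1, the platelet protein multimerin 1 that is also used as a stem cell marker, had one of -1.25 ± 0.19 (SE; adjusted p = 0.0417). Both entered the test through replicates 1 and 2 alone, where they are high, so their place past the threshold adds nothing to the counts of the list. Vwf was well above background on 2 and Mmrn1 on 1 of the 3 arrays of replicate 3, and both were higher in R882H3 than in WT1 and WT2.

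The only member of this list that passed as higher was Ifitm1, an interferon-induced membrane protein also found in stem cells and in germ cells. Its log2 levels were 4.41 in EV3, 4.39 in WT3 and 4.76 in R882H3, against a lowest of 2.86, a median of 3.12 and a highest of 3.15 in replicates 1 and 2. It rose, with a log2 difference of 1.46 ± 0.13 (SE; adjusted p = 0.0123), similar in the 3 vectors at 1.35 for EV, 1.39 for WT and 1.65 for R882H, and the arrays did not overlap. Procr, the endothelial protein C receptor used to enrich stem cells, had a log2 difference of -0.77 ± 0.30 (SE; adjusted p = 0.243) and did not pass. Trpc6, a calcium channel, had log2 levels of -6.05 in EV3, -5.80 in WT3 and -1.13 in R882H3, against a lowest of -1.98, a median of -0.59 and a highest of 0.50 in replicates 1 and 2. It was well above background on 1 of the 3 arrays of replicate 3 and did not pass, with a log2 difference of -3.73 ± 0.62 (SE; adjusted p = 0.0519).

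Megakaryocyte and platelet genes fell in part. Of 24 members 5 were not tested, 2 were admitted through replicates 1 and 2 alone and 17 were well above background on all 9 arrays. Among these 17, 15 were lower and 2 higher, with a median log2 difference of -0.48 and medians within vectors of -0.43 for EV, -0.34 for WT and -0.21 for R882H. Slc14a1 and Pf4 were among the members that passed as lower, as was Vwf, which was dim in replicate 3, and no member passed as higher. Without WT3 the list median was -0.14. Vwf is also a member of the stem cell list, so these lists are not independent.

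Pf4, the chemokine platelet factor 4 of platelet granules, had log2 levels of 1.37 in EV3, 0.88 in WT3 and 2.55 in R882H3, against a lowest of 1.85, a median of 3.47 and a highest of 4.45 in replicates 1 and 2. It fell, with a log2 difference of -1.58 ± 0.22 (SE; adjusted p = 0.0333), at -2.10 for EV, -1.08 for WT and -1.58 for R882H. Replicate 3 was the lowest of its vector in each group, and R882H3 lay above WT1 and WT2 and below EV1 and EV2. Slc14a1, a urea transporter, had a log2 difference of -1.09 ± 0.14 (SE; adjusted p = 0.0312), with nearly the same size in each vector at -1.12 for EV, -1.07 for WT and -1.07 for R882H. Treml1, a receptor of platelet granules, had a log2 difference of -1.01 (adjusted p = 0.0578) and F2rl2, a thrombin receptor, one of -0.80 (adjusted p = 0.101). Itga2b, the platelet integrin chain CD41, had log2 differences of -0.37 for EV, -0.34 for WT and 0.65 for R882H, and -0.020 (adjusted p = 0.977) over the 3. Summed over the members on the array, the linear level of the list, in multiples of the 75th percentile, was 38.002 in EV3, 34.3 in WT3 and 65.1 in R882H3, against 51.4 to 87.3 in replicates 1 and 2.

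The promoters of Pf4, which fell, and of Mmrn1, which was dim in replicate 3, are shown for the letters of factors that act in these lineages. They run from 250 bases before to 50 after the gene's start and are RefSeq sequences on GRCm38.p6, given 5′ to 3′ on the gene's strand, at chr5:90772185-90772484 on the plus strand and chr6:60944067-60944366 on the plus strand. Capitals mark GAGGAA or its reverse complement TTCCTC, the core of PU.1 sites, and AGATAA, the core of GATA sites.
Pf4: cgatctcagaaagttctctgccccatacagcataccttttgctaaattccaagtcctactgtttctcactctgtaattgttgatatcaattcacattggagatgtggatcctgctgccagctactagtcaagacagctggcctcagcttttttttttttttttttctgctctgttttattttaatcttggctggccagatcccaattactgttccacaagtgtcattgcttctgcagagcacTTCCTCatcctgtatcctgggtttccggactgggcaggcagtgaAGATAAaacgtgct
Mmrn1: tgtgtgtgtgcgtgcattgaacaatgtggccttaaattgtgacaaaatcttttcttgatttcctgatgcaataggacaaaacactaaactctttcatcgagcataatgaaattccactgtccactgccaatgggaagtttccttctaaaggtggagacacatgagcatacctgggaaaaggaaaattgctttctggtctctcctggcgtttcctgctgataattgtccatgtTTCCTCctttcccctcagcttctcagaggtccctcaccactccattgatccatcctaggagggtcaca
The letters AGATAA or TTATCT lay in 3 (25%) of the 12 windows of tested megakaryocyte members, against 11.4% of all 27025 windows and 7.2% of the 10047 windows of genes tested. The share was 11.8% for stem cell surface members, 6.67% for stem cell transcription factors, 7.69% for myeloid receptors and 0% for azurophil members. Among genes that passed, 12.5% of 16 windows of lower genes and 6.67% of 30 windows of higher genes held them. A match is a description of the letters and not of a bound site.

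Genes of multipotent and lymphoid-primed progenitors were lower without any passing. Of 19 members 3 were not tested, 1 was admitted through replicates 1 and 2 alone and 15 were on all 9 arrays, 13 of them lower and 2 higher. The median log2 difference was -0.44, and within vectors the medians were -1.14 for EV, -0.43 for WT and -0.10 for R882H. Dntt, the terminal transferase of early lymphoid cells, had log2 levels of 3.89 in EV3, 5.25 in WT3 and 6.39 in R882H3, against a lowest of 6.29, a median of 6.70 and a highest of 7.05 in replicates 1 and 2. The low arrays were EV3 and WT3, and R882H3 lay inside the range of the others, for a log2 difference of -1.49 ± 0.42 (SE; adjusted p = 0.130). Il7r, the interleukin 7 receptor, had log2 levels of -4.15, -1.92 and -0.36 in EV3, WT3 and R882H3 and a log2 difference of -1.95 (adjusted p = 0.128). It was the member admitted through replicates 1 and 2 alone, so it had to differ and is not among the 15. Notch1, the receptor that directs T cell fate, had a log2 difference of -1.04 ± 0.21 (SE; adjusted p = 0.0666) and Lsp1, a leukocyte actin-binding protein, one of -0.74 ± 0.19 (SE; adjusted p = 0.114). Both had all 3 arrays of replicate 3 below the other 6 without passing. Flt3, the receptor that defines multipotent progenitors within the LSK gate, had log2 differences of -1.02 for EV, -0.81 for WT and -0.10 for R882H.

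Gata3, a regulator of T cell fate that stem cells also use, was the T and NK lineage gene that fell. Its log2 levels were -2.86 in EV3, -2.69 in WT3 and -2.71 in R882H3, against a lowest of -1.38, a median of -1.05 and a highest of -0.42 in replicates 1 and 2, a log2 difference of -1.73 ± 0.22 (SE; adjusted p = 0.0271) without overlap and of -1.81 for EV, -1.57 for WT and -1.82 for R882H within vectors. Tcf7, the T cell factor TCF-1, had a log2 difference of -1.18 ± 0.21 (SE; adjusted p = 0.0578), also without overlap. Of the 12 T and NK members on all 9 arrays, 10 were lower and 2 higher, with a median log2 difference of -0.40.

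The list for the gate did not shift in a single direction. It joins Kit and Ly6a with lineage antigens that are sorted away and with Cd34, Cd48, Ptprc and Il7r, so its median does not describe the sorted markers alone. Of its 12 genes 3 were not tested, 1 was admitted through replicates 1 and 2 alone, and of the 8 on all 9 arrays 4 were higher and 4 lower, with a median log2 difference of -0.0038, or 0.053 with the array median as scale and 0.0057 with normexp. Kit, the receptor for stem cell factor, was well above background on all 9 arrays with log2 levels of 3.84 in EV3, 3.92 in WT3 and 3.99 in R882H3, against a lowest of 3.92, a median of 4.35 and a highest of 4.60 in replicates 1 and 2, and its log2 difference of -0.40 ± 0.14 (SE; adjusted p = 0.206) did not pass. Ly6a encodes Sca-1. It had log2 levels of 2.36 in EV3, 2.35 in WT3 and 2.88 in R882H3, against a lowest of 0.98, a median of 1.84 and a highest of 2.11 in replicates 1 and 2, and its 3 arrays of replicate 3 lay above the other 6 at a log2 difference of 0.85 ± 0.18 (SE; adjusted p = 0.0748). Cd34, a sialomucin of progenitors, lay below the other 6 at -0.50 ± 0.15 (SE; adjusted p = 0.161), and neither passed. Kit and Ly6a, which define the labelled cell type, were both measured on every array.

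Transcription factors of granulocytes and monocytes were mostly higher without any passing. Of 16 members 2 were not tested, 1 was admitted through replicate 3 alone and 13 were on all 9 arrays, 12 of them higher and 1 lower, with a median log2 difference of 0.33. WT3 against WT2 alone on their shared slide gave a list median of -0.30, the opposite sign. Spi1, which encodes PU.1, had log2 levels of 2.23 in EV3, 1.97 in WT3 and 1.61 in R882H3, against a lowest of 0.94, a median of 1.53 and a highest of 2.00 in replicates 1 and 2 and a log2 difference of 0.48 ± 0.13 (SE; adjusted p = 0.119). Cebpd, a C/EBP factor of the acute phase, had a log2 difference of 1.30 ± 0.30 (SE; adjusted p = 0.0888) without overlap. Cebpe, the C/EBP factor of late granulocyte maturation, had log2 differences of 2.37 for EV, 2.43 for WT and 0.86 for R882H and 1.89 (adjusted p = 0.0762) over the 3, with R882H3 inside the range of the others. It was the member admitted through replicate 3 alone, so it had to differ and is not among the 13.

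Gfi1, a repressor needed for neutrophil fate, had log2 differences of 0.90 for EV, 1.02 for WT and 0.0051 for R882H, so that R882H3 was not raised. Cebpa, the factor that starts granulocyte commitment, had one of 0.37 (adjusted p = 0.560), Irf8, which favours monocytes over granulocytes, one of 0.36 (adjusted p = 0.516), and Nfe2l2, the regulator of the oxidative stress response, one of 0.33 (adjusted p = 0.505). For each of these 3 the arrays of replicate 3 overlapped the others. Id2, an inhibitor of helix-loop-helix factors, was the lower member at -0.72 ± 0.21 (SE; adjusted p = 0.138).

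Myeloid receptors rose in part. Of 20 members 1 was not tested, 2 were admitted through replicate 3 alone and 17 were well above background on all 9 arrays. Among these 17, 15 were higher and 2 lower, with a median log2 difference of 0.49 and a lowest of -1.01. At an unadjusted p under 0.05, 11 were higher and 1 lower. Within vectors the medians were 0.41 for EV, 0.50 for WT and 0.32 for R882H. Cd14, Fcgr3 and Fcgr2b passed.

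Cd14, the co-receptor for lipopolysaccharide on monocytes, had log2 levels of 0.37 in EV3, -1.11 in WT3 and -1.04 in R882H3, against a lowest of -3.28, a median of -2.85 and a highest of -2.61 in replicates 1 and 2. It rose, with a log2 difference of 2.32 ± 0.24 (SE; adjusted p = 0.0161) without overlap, and R882H3 was as high as WT3. Fcgr3, an activating Fc receptor, had log2 levels of 1.46 in EV3, 1.41 in WT3 and 0.27 in R882H3, against a lowest of -1.37, a median of -0.52 and a highest of 0.28 in replicates 1 and 2 and a log2 difference of 1.63 ± 0.19 (SE; adjusted p = 0.0244). Fcgr2b, the inhibitory Fc receptor, had a log2 difference of 1.22 ± 0.13 (SE; adjusted p = 0.0183), close in the 3 vectors at 0.98 for EV, 1.34 for WT and 1.33 for R882H. For both genes replicate 3 was the highest of its vector and R882H3 lay below EV1.

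Tlr2, a receptor for bacterial lipoproteins, had a log2 difference of 1.12 ± 0.20 (SE; adjusted p = 0.0578), Il3ra, the interleukin 3 receptor chain, one of 0.78 ± 0.18 (SE; adjusted p = 0.0919), and Emb, the adhesion protein embigin of myeloid progenitors, one of 0.42 ± 0.11 (SE; adjusted p = 0.116). None of the 3 passed, and the arrays for Tlr2 and Il3ra did not overlap. Csf3r and Csf1r, growth factor receptors of the lineage, stayed near 0. Csf3r, the receptor for G-CSF, had log2 levels of 7.90 in EV3, 7.84 in WT3 and 7.95 in R882H3, against a lowest of 7.79, a median of 7.93 and a highest of 7.97 in replicates 1 and 2. Its log2 difference was -0.0091 ± 0.11 (SE; adjusted p = 0.978), and that of Csf1r, the receptor for M-CSF, was 0.0067 ± 0.12 (SE; adjusted p = 0.985), with signs that turned under other settings.

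Azurophil granule and early granulocyte-monocyte genes were the list with the most genes that rose. Each of the 21 members was detected well above background on all 9 arrays, 20 of them higher and 1 lower, and 5 passed as higher. The median log2 difference was 0.97. At an unadjusted p under 0.05, 17 were higher and 0 lower. Replicate 3 lay above both others in all 3 vectors for 17 of the 21, against 12% of all genes on all 9 arrays. Within vectors the list medians were 1.18 for EV, 0.96 for WT and 0.54 for R882H, and WT3 against WT2 on the shared slide gave 0.85.

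Elane, neutrophil elastase, had log2 levels of 5.33 in EV3, 4.92 in WT3 and 3.14 in R882H3, against a lowest of 1.16, a median of 2.30 and a highest of 3.61 in replicates 1 and 2. It rose, with a log2 difference of 2.11 ± 0.32 (SE; adjusted p = 0.0400), at 2.38 for EV, 2.28 for WT and 1.68 for R882H. Ms4a3, a membrane protein of granulocyte-monocyte progenitors, had log2 levels of 6.13 in EV3, 5.55 in WT3 and 3.84 in R882H3, against a lowest of 2.10, a median of 3.08 and a highest of 3.92 in replicates 1 and 2. Its log2 difference was 2.10 ± 0.29 (SE; adjusted p = 0.0333), and as for Elane EV3 and WT3 lay above all others while R882H3 lay inside their range. Ctsg, the serine protease cathepsin G, had log2 levels of 7.73 in EV3, 7.27 in WT3 and 6.10 in R882H3, against a lowest of 4.64, a median of 5.74 and a highest of 6.36 in replicates 1 and 2 and a log2 difference of 1.46 ± 0.21 (SE; adjusted p = 0.0365). Ctsc, the cathepsin that activates these proteases, had a log2 difference of 1.06 ± 0.15 (SE; adjusted p = 0.0337) and did not overlap. The fifth member that rose was Hp, described above.

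Other granule genes ran the same way below the threshold. Prtn3, proteinase 3, had a log2 difference of 2.10 ± 0.37 (SE; adjusted p = 0.0578), Prss57, a neutrophil serine protease, one of 1.71 ± 0.28 (SE; adjusted p = 0.0519) and Mpo, myeloperoxidase, one of 0.91 ± 0.17 (SE; adjusted p = 0.0598). Mpo had log2 levels of 7.93 in EV3, 7.68 in WT3 and 6.92 in R882H3, against a lowest of 5.91, a median of 6.67 and a highest of 7.19 in replicates 1 and 2. Replicate 3 was the highest of its vector each time, and R882H3 lay inside the range of the other vectors' arrays.

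**Figure D2:**
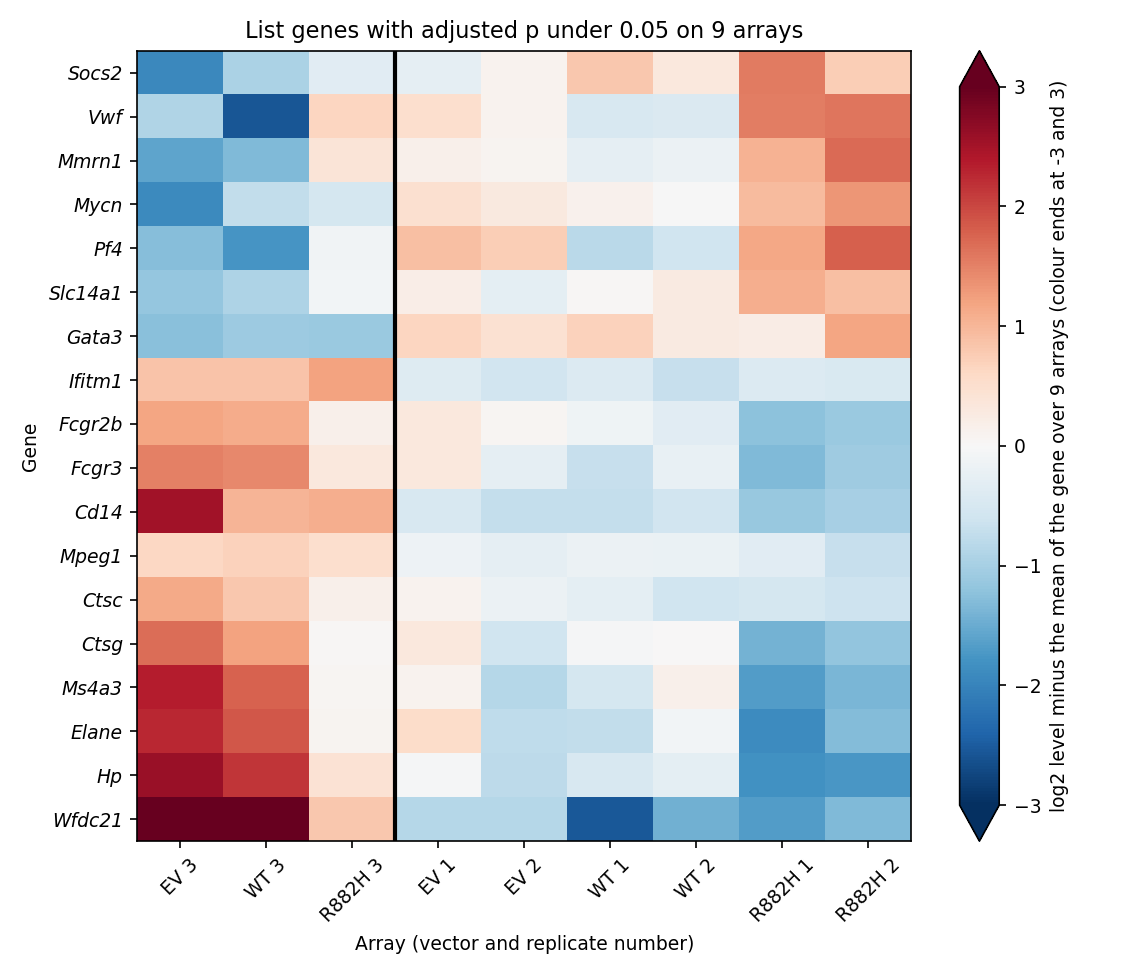
Log2 level minus the gene's mean over 9 arrays (colour) of genes of the stem cell, megakaryocyte, T cell, myeloid, monocyte and granule lists that passed an adjusted p under 0.05, 1 column per array with the 3 of replicate 3 left of the black line. Genes that fell in replicate 3 are at the top and those that rose at the bottom. R882H3 is paler than EV3 and WT3 for most genes, and R882H1 and R882H2 mostly have the opposite colour to EV3 and WT3.

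The promoters of Elane, Ctsg and Ms4a3, granule and progenitor genes that rose, are shown with the same window and source as above, at chr10:79886062-79886361 on the plus strand, chr14:56102525-56102824 on the minus strand and chr19:11640802-11641101 on the minus strand. Capitals mark GAGGAA, the core of PU.1 sites, and ACCACA, the reverse complement of TGTGGT, the core of RUNX sites.
Elane: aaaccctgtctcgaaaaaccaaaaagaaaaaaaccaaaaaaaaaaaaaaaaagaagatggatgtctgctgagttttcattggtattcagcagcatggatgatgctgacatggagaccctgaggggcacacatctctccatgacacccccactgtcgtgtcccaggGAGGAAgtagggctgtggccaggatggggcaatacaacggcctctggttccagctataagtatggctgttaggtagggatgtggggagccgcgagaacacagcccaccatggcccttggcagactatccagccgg
Ctsg: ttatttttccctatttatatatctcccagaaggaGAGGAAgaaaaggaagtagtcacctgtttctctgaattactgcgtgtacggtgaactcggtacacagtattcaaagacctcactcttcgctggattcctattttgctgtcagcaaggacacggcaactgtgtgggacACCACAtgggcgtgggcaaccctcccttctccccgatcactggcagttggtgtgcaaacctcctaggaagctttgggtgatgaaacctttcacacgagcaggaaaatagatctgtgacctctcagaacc
Ms4a3: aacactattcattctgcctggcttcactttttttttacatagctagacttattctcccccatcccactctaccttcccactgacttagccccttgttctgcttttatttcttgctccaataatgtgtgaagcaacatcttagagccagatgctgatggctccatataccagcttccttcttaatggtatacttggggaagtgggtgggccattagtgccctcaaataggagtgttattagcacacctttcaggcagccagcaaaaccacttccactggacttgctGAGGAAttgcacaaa
All 5 windows were searched on both strands for the 3 motifs. Each of these 3 windows holds the PU.1 letters once. GAGGAA or TTCCTC lay in 47.1% of the 17 windows of azurophil list members, against 28.3% of all 27025 windows and 26.7% of the 10047 windows of genes tested. The share was 53.8% in the 13 windows of tested myeloid receptor members. Among lists that were lower it was 47.1% in the 17 windows of stem cell surface members and 50% in the 12 of megakaryocyte members. It was 26.7% in the 15 of stem cell transcription factors. Among these lists, high shares of the letters were thus not limited to those that were higher. Among genes that passed, 36.7% of 30 windows of higher genes and 37.5% of 16 windows of lower genes held them. TGTGGT or ACCACA lay in 29.4% of the azurophil windows and in 0% of the stem cell surface windows, against 16.9% of all and 13.1% of those of genes tested. Among genes that passed, 6.67% of the windows of higher genes and 6.25% of those of lower genes held them, so these letters did not separate the directions either.

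Some genes of late granules and mature neutrophils were high in EV3 and WT3, while the list was mixed and several defining markers were at background. Of 22 members 11 were not tested, 4 were admitted through replicate 3 alone and 7 were on all 9 arrays, 4 of them higher and 3 lower, with a median log2 difference of 0.49. Within vectors the medians over these 7 were 0.13 for EV, 0.78 for WT and -0.37 for R882H. Wfdc21, which was admitted through replicate 3 alone, was the member that passed. Summed over the 20 members on the array, the linear level in multiples of the 75th percentile was 76.5 in EV3, 23.7 in WT3 and 7.42 in R882H3. In replicates 1 and 2 it was 4.48 to 7.47. R882H3 lay inside this range over all vectors, but above R882H1 at 4.48 and R882H2 at 4.70. None of the 9 arrays showed Ltf, Mmp9, Itgb2l, Fpr1 or Fpr2 well above background, and Ly6g and Olfm4 have no named probe. The part of maturing neutrophils in the differences of the granule and receptor genes was not tested.

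Lcn2, the iron-binding granule protein lipocalin 2, had log2 levels of 4.59 in EV3, 2.96 in WT3 and 1.28 in R882H3, against a lowest of -1.05, a median of -0.28 and a highest of 0.10 in replicates 1 and 2. Its log2 difference was 3.28 ± 0.57 (SE; adjusted p = 0.0578), with 5.08 for EV, 3.24 for WT and 1.51 for R882H. S100a8, a subunit of calprotectin, had log2 levels of 3.24, 0.51 and -1.69 in EV3, WT3 and R882H3 and was well above background on 1 of the 6 other arrays, where Chil3, a chitinase-like protein, was so on 3 of 6. Their log2 differences of 5.39 (adjusted p = 0.0591) and 4.69 (adjusted p = 0.0603) did not pass. S100a9, the other subunit, had log2 differences of 4.66 for EV, 3.31 for WT and -0.59 for R882H, so that R882H3 was below R882H1 and R882H2. Pglyrp1, a peptidoglycan recognition protein, had a log2 difference of 1.34 (adjusted p = 0.0630). Fcnb, ficolin B, was well above background on none of the 6 other arrays and at least 3.79-fold higher in replicate 3 (adjusted p = 0.0664).

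Monocyte and tissue macrophage genes were higher in part, and 1 rose. Of 24 members 10 were not tested, 3 were admitted through replicate 3 alone, 1 through replicates 1 and 2 alone and 10 were on all 9 arrays, 7 of them higher and 3 lower, with a median log2 difference of 0.83 and medians within vectors of 0.48 for EV, 0.999 for WT and 0.87 for R882H. Over all 14 members tested, dim ones included, the median was 0.15, and -0.13 within R882H. Mpeg1, the pore-forming perforin-2 of macrophages, had log2 levels of 2.51 in EV3, 2.58 in WT3 and 2.39 in R882H3, against a lowest of 1.19, a median of 1.65 and a highest of 1.74 in replicates 1 and 2. It rose, with a log2 difference of 0.91 ± 0.13 (SE; adjusted p = 0.0337) without overlap, and with 0.83 for EV, 0.87 for WT and 1.02 for R882H. F13a1, a coagulation factor chain made by monocytes, had a log2 difference of 1.95 ± 0.34 (SE; adjusted p = 0.0578), Lgals3, the lectin galectin-3, one of 2.10 ± 0.42 (SE; adjusted p = 0.0664), Cybb, the phagocyte oxidase chain, one of 2.00 ± 0.40 (SE; adjusted p = 0.0664) and Ccr2, the receptor that takes monocytes to inflamed tissue, one of 1.39 ± 0.31 (SE; adjusted p = 0.0888). None of these 4 passed. The summed level of the list was 89.8 in EV3, 60.8 in WT3 and 37.04 in R882H3, against 18.4 to 42.95 in replicates 1 and 2, in multiples of the 75th percentile, and no array had Mrc1 or Timd4, markers of tissue macrophages, well above background.

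Erythroid, mast cell, B lineage, endothelial and stromal markers were mixed, and none passed. Of 13 erythroid genes on all 9 arrays 4 were higher and 9 lower, with a median log2 difference of -0.38 and none past the threshold, while WT3 against WT2 on the shared slide gave 0.39. Car2, carbonic anhydrase 2, had one of -0.99 (adjusted p = 0.123) and Gata1, the erythroid and megakaryocyte factor, one of -0.75 (adjusted p = 0.150). Of 12 mast cell, basophil and eosinophil genes 7 were higher and 5 lower, with a median of 0.074. Hdc, histidine decarboxylase, had a log2 difference of 1.44 (adjusted p = 0.0578), Mcpt8, a basophil protease, one of 0.94 (adjusted p = 0.0558) and Fcer1a, the IgE receptor chain, which was well above background on 2 of the 6 arrays of replicates 1 and 2, one of 1.62 (adjusted p = 0.138). Of 5 B lineage genes 3 were higher and 2 lower, and Vpreb3, a pre-B cell receptor component detected on 3 of the same 6 arrays, had a log2 difference of 1.11 (adjusted p = 0.0694). The summed levels in multiples of the 75th percentile were 16.9 in EV3, 23.4 in WT3 and 29.2 in R882H3, against 16.5 to 27.3 in replicates 1 and 2 for B lineage genes, and 9.44 in EV3, 12.05 in WT3 and 10.4 in R882H3, against 9.39 to 12.02 in replicates 1 and 2 for endothelial and stromal genes. Of 6 endothelial and stromal genes on all 9 arrays 3 were higher and 3 lower, with a median log2 difference of -0.057, or 0.0032 with normexp. Emcn, the endothelial sialomucin endomucin that stem cells also carry, had a log2 difference of -1.78 (adjusted p = 0.0664) and was well above background on 1 of the 3 arrays of replicate 3.

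Lists for growth and energy metabolism were mostly higher by small amounts. Of 30 Myc and ribosome biogenesis genes, all on all 9 arrays, 29 were higher and 1 lower, with a median log2 difference of 0.28. The lower one, Mycn, is the stem cell factor given above and the only one that passed. Of 30 oxidative phosphorylation subunits 28 were higher and 2 lower with a median of 0.25, and 12 were higher at an unadjusted p under 0.05 without any passing, against 9.96% of all genes on all 9 arrays. Of 22 glycolysis and hypoxia genes 16 were higher and 6 lower with a median of 0.27. Both medians were smaller with 2 other normalizations. For oxidative phosphorylation the median was 0.14 with quantile normalization and 0.16 with cyclic loess. For glycolysis and hypoxia it was 0.19 with either. Eno1, enolase, had a log2 difference of 0.80 ± 0.16 (SE; adjusted p = 0.0630), Pgam1, phosphoglycerate mutase, one of 0.67 ± 0.13 (SE; adjusted p = 0.0615), Aldoa, aldolase, one of 0.67 ± 0.13 (SE; adjusted p = 0.0664) and Gpi1, glucose phosphate isomerase, one of 0.68 ± 0.13 (SE; adjusted p = 0.0664). All 4 were short of the threshold, and only Pgam1 overlapped between the sides. Nop2, a methyltransferase of ribosomal RNA, had a log2 difference of 0.67 (adjusted p = 0.115) and Uqcrq, a subunit of respiratory complex III, one of 0.58 (adjusted p = 0.0941). Of 30 ribosomal protein genes 24 were higher and 6 lower with a median of 0.072, which turned to -0.00825 with quantile normalization, -0.050 with cyclic loess and -0.00267 without replicate 2.

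Cell cycle genes had small median differences. Of 32 DNA replication genes 21 were higher and 11 lower with a median log2 difference of 0.080, and of 29 mitosis genes 21 were higher and 8 lower with a median of 0.16. Within the empty vector group these medians were -0.020 and -0.012. Mki67, which marks cycling cells, had log2 levels of 5.26 in EV3, 5.17 in WT3 and 5.27 in R882H3, against a lowest of 4.29, a median of 4.99 and a highest of 5.52 in replicates 1 and 2, a log2 difference of 0.28 ± 0.19 (SE; adjusted p = 0.490). Of 15 inhibitors of cyclin-dependent kinases and regulators of quiescence 13 were lower and 2 higher with a median of -0.29. Rbl2, the Rb family protein p130 of resting cells, had a log2 difference of -0.56 ± 0.13 (SE; adjusted p = 0.0913) without overlap. None of the genes in these 3 lists passed.

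Genes of the Hox clusters, of the interferon response and of DNA methylation were lower or mixed, and none passed. Of 9 Hox genes on all 9 arrays 8 were lower and 1 higher, and the median log2 difference was -1.11 for EV, -0.19 for WT and -0.17 for R882H. Hoxa10, a homeobox factor of progenitors, had log2 levels of -2.72 in EV3, -2.89 in WT3 and -1.59 in R882H3, against a lowest of -1.43, a median of -0.88 and a highest of -0.15 in replicates 1 and 2, a log2 difference of -1.51 ± 0.32 (SE; adjusted p = 0.0728) without overlap. Of 27 interferon response genes 19 were lower and 8 higher with a median log2 difference of -0.31, among them Rtp4, an interferon-induced chaperone of receptors, at -1.08 ± 0.19 (SE; adjusted p = 0.0578). WT3 against WT2 on the shared slide gave an interferon median of 0.22. Of 10 imprinted genes 9 were lower and 1 higher with a median of -0.22, of 23 immediate early and stress genes 15 were lower and 8 higher with a median of -0.11, and of 11 dendritic cell and MHC class II genes 6 were lower and 5 higher with a median of -0.027, or 0.029 with the array median as scale. Of 16 DNA methylation genes 9 were lower and 7 higher with a median of -0.080. Dnmt3b, the other de novo methyltransferase, had a log2 difference of -0.69 ± 0.14 (SE; adjusted p = 0.0664) and Dnmt3a one of -0.80 ± 0.17 (SE; adjusted p = 0.0751), both without overlap. The labels do not give the species of the DNMT3A insert, so the Dnmt3a probe does not check the vectors.

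A score for each array was taken as the median over a list's genes on all 9 arrays, after each gene was centred on its mean over the arrays, in log2 units. The azurophil score was 1.03 in EV3, 0.82 in WT3 and 0.0029 in R882H3, against 0.094 and -0.35 in EV1 and EV2, -0.12 and 0.028 in WT1 and WT2, and -0.60 and -0.63 in R882H1 and R882H2. The stem cell surface score was -0.64 in EV3, -0.54 in WT3 and 0.034 in R882H3, against -0.20 and 0.074 in EV1 and EV2, 0.022 and 0.11 in WT1 and WT2, and 0.46 and 0.61 in R882H1 and R882H2. Replicate 3 had the highest azurophil score and the lowest stem cell surface score of its vector in all 3 groups.

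The azurophil score minus the stem cell surface score places an array between stem and myeloid. It was 1.67 in EV3, 1.35 in WT3 and -0.031 in R882H3, against 0.29 and -0.42 in EV1 and EV2, -0.15 and -0.082 in WT1 and WT2, and -1.06 and -1.23 in R882H1 and R882H2. The difference of replicate 3 from the mean of the other 2 was 1.74 for EV, 1.47 for WT and 1.11 for R882H. R882H3 therefore stood among the arrays of replicates 1 and 2 with the other vectors, and R882H1 and R882H2 stood at the stem end of all 9.

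**Figure D3:**
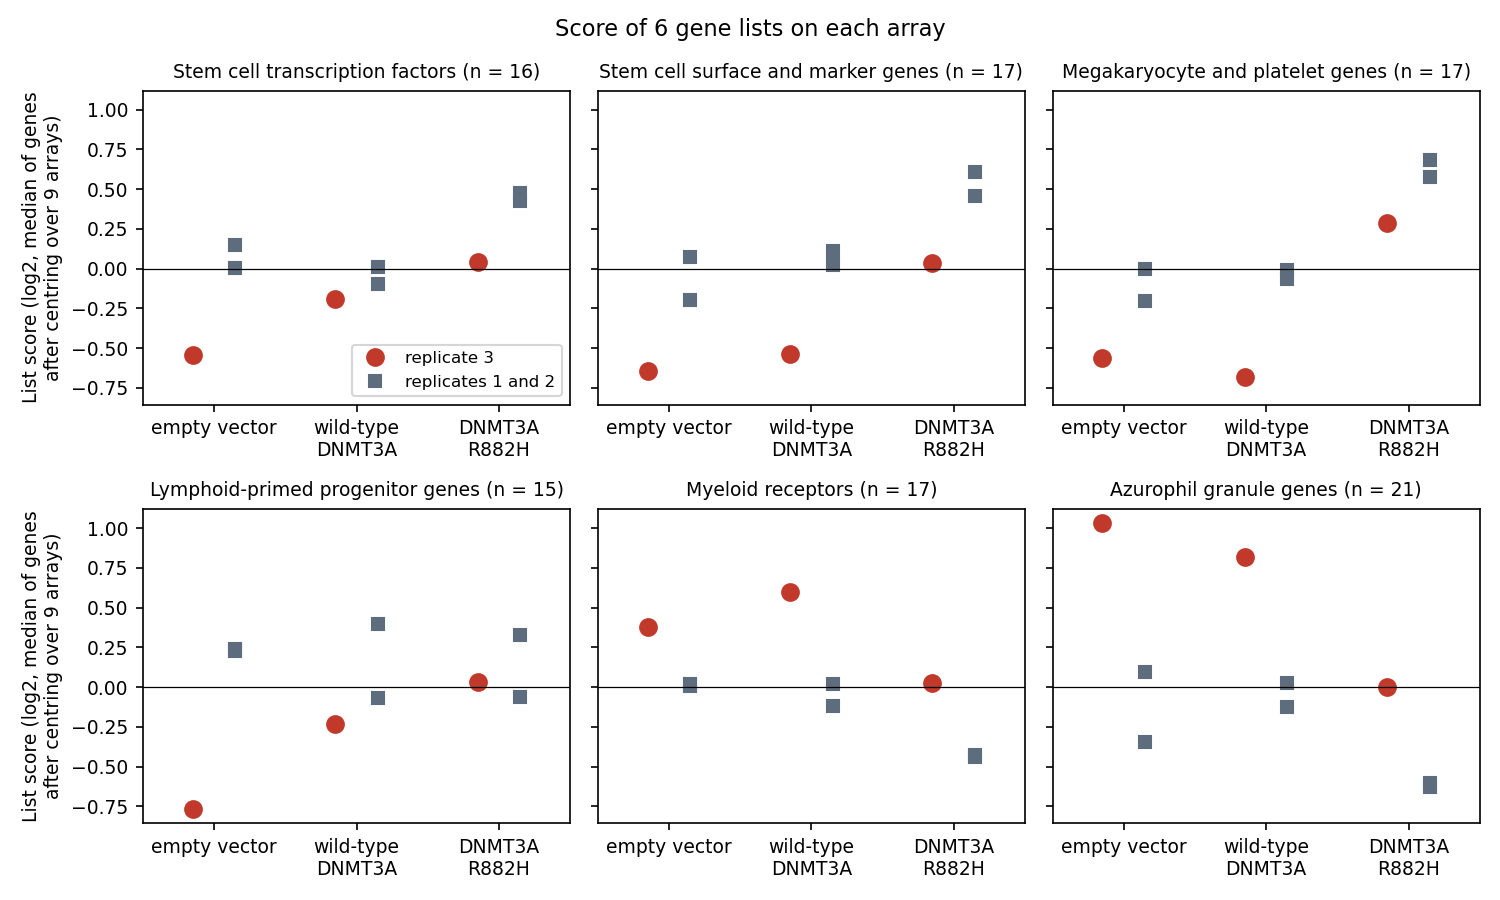
Score of 6 gene lists (y axis, log2, median over the list's genes on all 9 arrays after centring) on each array, by vector group (x axis), with replicate 3 as circles left of replicates 1 and 2 as squares. In every panel but that for lymphoid-primed genes, replicate 3 lies beyond both other replicates in every vector group. For lymphoid-primed genes R882H3 at 0.034 lies between R882H1 and R882H2. For azurophil genes R882H3 at 0.0029 lies inside the range of EV1, EV2, WT1 and WT2.

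Whether the replicate 3 difference itself differed between R882H and the other vectors was tested with an interaction term. Of 12528 genes 0 (0%) passed by limma after adjustment and 630 (5.03%) had an unadjusted p under 0.05. The median SE of that term was 0.367. Of the 61 genes that passed for replicate 3, the R882H difference was nearer 0 than the mean of the other vectors for 47, against 6191 of all 12528 genes. The genes with the smallest interaction p included Wfdc21, with a term of -3.08 ± 0.53 (SE; adjusted p = 0.747). Cpeb1, a regulator of mRNA polyadenylation, had log2 differences of 0.088 for EV, -0.44 for WT and 2.94 for R882H. Oasl1, an interferon-induced protein, had log2 differences of -1.26 for EV, -1.38 for WT and 0.35 for R882H and Maneal, a mannosidase-like protein, -0.19 for EV, -0.49 for WT and -2.65 for R882H, and none of these terms passed.

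**Figure D4:**
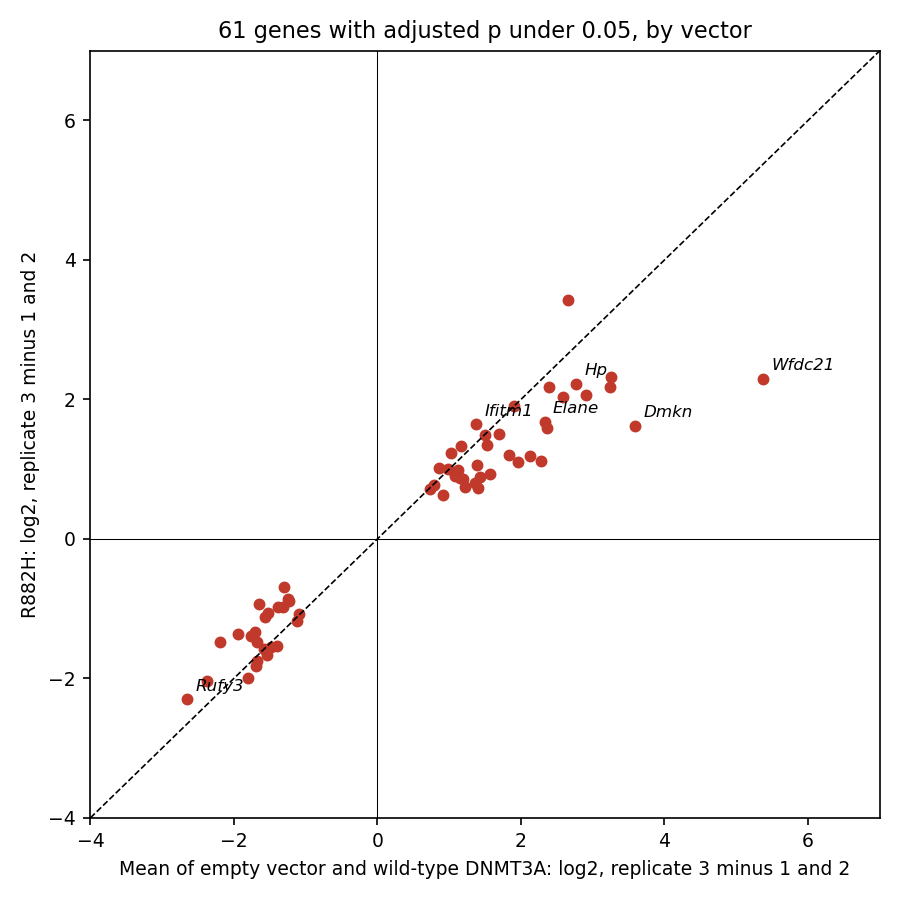
Log2 difference of replicate 3 from replicates 1 and 2 with R882H (y axis) against the mean of the same differences with empty vector and wild-type DNMT3A (x axis) for the 61 genes that passed an adjusted p under 0.05, with the line of equality dashed. All points lie in the quadrants of equal sign, and 47 of the 61 are nearer 0 on the y axis than on the x axis.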

How the data were processed

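RNA was measured in 9 samples of LSK cells on Agilent 1-colour arrays, 3 for each of 3 vectors. Per the file headers, the software was Agilent Feature Extraction, version 10.10.1.1, for design 028005, with probe coordinates of build mm9. Per the same headers, the deposited spot intensity is linear, with background subtracted and a spatial trend removed. A further deposited table holds log2 values of 41854 probes, with no method given in the sources used here. It served as an alternative only. The number of arrays limits the precision.

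Each array had 62976 spots, 59305 of them not controls, covering 55681 probes. No spot was saturated, and 154 to 184 outlier spots per array were left out. Intensities were scaled to the 75th percentile of the array and taken to log2, and spots of a probe were averaged. The filter kept 29354 probes, each well above background on all 3 arrays of replicate 3 or all 6 others. A gene symbol was found for 27235 probes through their accessions, 0 had several and 28446 had none. Of several probes of a gene the one of highest mean was used, which left 12528 genes, 601 of them admitted through replicate 3 alone and 266 through replicates 1 and 2 alone. Tests used R 4.3.3 and limma 3.58.1 (lmFit, eBayes, vector group and number 3 as terms, degrees of freedom 5 residual and 3.06 prior, Benjamini-Hochberg, threshold 0.05) and were checked on simulated data. Same-numbered pairing was not tested, since the number is the comparison.

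The comparison, the 28 gene lists and the rule for named genes were chosen with earlier results of these data known. Named genes are the 10 largest folds per direction among genes that passed and whose deviations did not overlap, the 4 or 6 members of smallest p per list, a fixed panel, and the 5 smallest interaction p per direction. Some named genes are not reported here. Exceptions are said to be chosen after their values were seen, and the text does not describe every gene the rule names. The alternatives were normexp with offset 50 (on median signals, since the output has no mean signal), quantile and cyclic loess normalization, the array median as scale, other filters, array weights, a trended prior, slide as a block, no vector term, the mean of a gene's probes, the deposited table, and leaving out arrays, replicate numbers or vectors.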

Additional observations from a re-analysis of the deposited data

Results flagged for a closer look

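Of 139 measures looked at over the 6 arrays of replicates 1 and 2, 5 had 1 array standing apart, with a gap to the nearest other array above the 95% limit of Dixon's test for 6 arrays. Chance gives about 1 in 20 such groups. All values are log2 levels relative to the 75th percentile of the array. Prdm16 was at -3.38 in WT1, against -2.23 to -1.90 on the other 5 arrays. Il3ra was at 1.13 in EV1, against 0.41 to 0.62. Mpeg1 was at 1.19 in R882H2, against 1.55 to 1.74. Eno1 was at 4.25 in EV1, against 3.71 to 3.89. Nop2 was at 2.48 in EV1, against 1.75 to 1.97. Without EV1 the log2 difference of replicate 3 was 0.89 for Il3ra, 0.85 for Eno1 and 0.79 for Nop2 (limma, adjusted p = 0.0510, 0.0811 and 0.0586). Without WT1 that of Prdm16 was -2.12 (limma, adjusted p = 0.116), and without R882H2 that of Mpeg1 was 0.85 (limma, adjusted p = 0.0662), which ended its call.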

How the results depend on the processing

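The count of 61 genes was 301 with normexp (193 higher, 108 lower), 133 with the array median as scale (99 higher, 34 lower), 96 over genes well above background on all 9 arrays, and 434 with a trended prior. It was 3 without the filter on dim probes and 10 without the vector term. With slide as a fixed block, where R882H3 drops out of the difference, it was 3. It was 6 without the empty vector group, 0 without the wild-type DNMT3A group (limma; 1593 at an unadjusted p under 0.05) and 24 without the R882H group. It stayed between 52 and 76 with quantile normalization, cyclic loess, array weights and the mean of probes. With slide as a random block it was 61, but the estimated correlation within slides was -0.015. That fit hardly differs from the main one and does not check the part of slide. The count was 62 with the deposited table taken by the arrays its columns hold, an alternative chosen after seeing the data. By its column names, which put the wild-type DNMT3A arrays in the place of replicate 3, the deposited table gave 0 (661 unadjusted). Leaving out single arrays or numbers gave 0 (without replicate 1; limma, 2046 unadjusted) to 130, on the genes of the full test. The interaction count was 0 under every setting run, including each left-out array but R882H3, without which it has no value. No paired analysis was possible because the replicate number is itself the comparison and the vector group is already the block.

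List medians of log2 differences kept their sign under each setting run for the 6 lists below, except that of lymphoid-primed genes, at 0.081 by the deposited table's column names. By the scanner labels, medians by the deposited names compare wild-type DNMT3A arrays with those of the other vectors and are not differences of replicate 3. The stem cell factor list at -0.37 moved to -0.71 within slide 1 and -0.018 within slide 2, with -0.42 to -0.16 as arrays were left out. The stem cell surface list at -0.47 moved to -0.24 with normexp, -0.29 without replicate 1, -0.15 within slide 2 and -0.15 by the deposited table's column names, with -0.57 to -0.29 as arrays were left out. The lymphoid-primed list at -0.44 moved to -1.14 within slide 1, with -0.77 to -0.27 as arrays were left out. The myeloid receptor list at 0.49 moved to 0.61 with the mean of probes and 0.24 by the deposited names, with 0.40 to 0.58 as arrays were left out. The azurophil list at 0.97 moved to 0.36 by the deposited names, with 0.81 to 1.17 as arrays were left out. The megakaryocyte list at -0.48 moved to -0.26 with normexp, -0.62 with slide as a fixed block, -0.26 without the empty vector group, -0.14 without the wild-type DNMT3A group, -0.13 by the deposited names and -0.35 within slide 2, with -0.57 to -0.14 as arrays were left out.

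Differences of named genes that changed sign under the deposited table's column names were, on the log2 scale, Wfdc21 -0.40, Dmkn -0.18, Mt1 -0.50, Cd14 -0.13, Rufy3 0.59, Dcaf12l1 0.29, Carns1 0.47, Socs2 0.087, Tal1 0.089, Ifitm1 -0.12, Ly6a -0.63, Il7r 0.054, Cd34 0.27, Kit 0.021, Dntt 0.059, Flt3 0.11, Id2 0.13, Nfe2l2 -0.16, Tlr2 -0.031, Il3ra -0.084, Csf1r -0.12, Ctsc -0.030, S100a8 -0.19, Pglyrp1 -0.032, S100a9 -0.81, Lgals3 -0.79, Fcer1a -0.13, Vpreb3 -0.54, Tcf7 0.18, Eno1 -0.042, Dnmt3b 0.36, Dnmt3a 0.0064, Mki67 -0.40, Cpeb1 -0.35, Oasl1 0.13, Maneal 0.48, Ncf1 -0.041, Nop2 -0.052 and Uqcrq -0.088. By the scanner labels, the deposited names set wild-type DNMT3A arrays against those of the other vectors, so that setting does not compare replicate 3 with the others. Other sign changes on the log2 scale, all of genes that had not passed, were these. Mecom 0.14 without the wild-type DNMT3A group and -1.47 to 0.14 as arrays or numbers were left out. Csf1r -0.0075 with normexp, -0.11 with quantile normalization, -0.090 with cyclic loess, -0.012 with array weights, -0.10 without the wild-type DNMT3A group and -0.10 to 0.088 as arrays or numbers were left out. Csf3r 0.047 with the array median as scale and -0.054 to 0.036 as arrays or numbers were left out. Itga2b 0.0048 with normexp, 0.0026 with quantile normalization, 0.037 with the array median as scale, 0.16 without the empty vector group, 0.14 without the wild-type DNMT3A group and -0.35 to 0.16 as arrays or numbers were left out. Cpeb1 -0.27 with slide as a fixed block, -0.18 without the R882H group and -0.18 to 1.51 as arrays or numbers were left out. Apart from the deposited names, none of the 36 named genes that passed changed sign, and the rest of the 61 were not followed. Taken by the arrays its columns hold, the deposited table changed the sign of none of these 36. The cause of the sign changes under the other settings was not tested.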

Other observations

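Some of the 61 genes that passed lie outside the lists and were chosen here after their values were seen. Sdf2l1, a partner of endoplasmic reticulum chaperones, had log2 levels of 6.61 in EV3, 6.37 in WT3 and 5.50 in R882H3, against a lowest of 4.50, a median of 4.91 and a highest of 5.37 in replicates 1 and 2, a log2 difference of 1.25 ± 0.16 (SE; adjusted p = 0.0312). Pdia4, a protein disulfide isomerase, had a log2 difference of 1.02 ± 0.13 (SE; adjusted p = 0.0270), Ddost, a subunit of the oligosaccharyltransferase that adds sugars to new proteins, one of 0.73 ± 0.11 (SE; adjusted p = 0.0469) and Lman2, a cargo lectin between the endoplasmic reticulum and the Golgi, one of 0.82 ± 0.13 (SE; adjusted p = 0.0469). For all 4 the 3 arrays of replicate 3 lay above the other 6.

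Ly6c1, a surface protein of monocytes, endothelium and other cells that has close paralogs, had log2 levels of 5.74 in EV3, 5.88 in WT3 and 4.60 in R882H3, against a lowest of 3.40, a median of 3.77 and a highest of 4.53 in replicates 1 and 2, a log2 difference of 1.62 ± 0.19 (SE; adjusted p = 0.0248). Ncf1, a cytosolic subunit of the phagocyte oxidase, had a log2 difference of 1.08 ± 0.16 (SE; adjusted p = 0.0404). Neither overlapped between the sides.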
